A study of Glycine max with 8 samples.

Results

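MYB73 (Glyma.04G042300-1), a further Myb family transcript (Glyma.10G277800-1) and ethylene responsive factor 1 (ERF1, Glyma.10G007000-1) are 3 soybean transcripts for transcription factors. They were matched by identifier among the 77681 transcripts on a leaf expression array, and all 3 were among the 55087 transcripts that were measured well enough to be tested. Each of the 3 loci had 1 transcript entry on the array, with 3 probes for MYB73 and 2 probes each for the Myb transcript and ERF1. The names follow the Arabidopsis counterparts given by the study. The gene that RefSeq calls MYB73 in soybean lies on chromosome 6 and is another gene, since the number after "Glyma." in the identifiers names chromosomes 4 and 10. These transcripts were picked because their levels under drought were known, so their drought changes are given as descriptions, from which nothing is inferred, and for them only the recovery after re-watering is reported as a test.

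Seedlings of Glycine max cultivar Daepoong were grown for 7 days with water. Of 2 plates, 1 then had the water tray withdrawn for 4 days (DR1), and the other stayed watered (WT1). The drought-treated plate was watered again for 1 day (WT2), and then passed through a second drought of 4 days (DR2). The sample labels give the first drought in hours, whereas the treatment protocol and the study's methods give 4 days, which was used. No other treatment or genotype was involved. Leaf RNA of each condition was hybridized to 2 single-colour arrays, 8 in all, from 2 independent experiments. The WT1 and DR1 arrays shared a slide and the WT2 and DR2 arrays shared the other, so that slide and condition cannot be told apart in DR2 against DR1 or in WT2 against WT1. The 4 conditions hold no continuously watered control of the age of the WT2 or DR2 leaves. Leaf age and condition therefore cannot be told apart in those comparisons or in DR2 against WT2.

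MYB proteins bind DNA through helical repeats and form one of the largest families of plant transcription factors. In Arabidopsis, MYB73 belongs to the same subgroup as MYB44, a factor known for its part in abscisic acid and stress responses. ERF1 carries the AP2 domain of the ethylene response factors. In Arabidopsis it is transcribed when the ethylene regulator EIN3 is active, it also responds to jasmonate, and it binds the GCC box of defense genes such as those for defensins and basic chitinases. Drought in leaves is accompanied by abscisic acid and ethylene signals, and a gene whose response to a second drought differs from its response to the first is spoken of as a memory gene.

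On the arrays, between 55.2% and 65.2% of the probes were well above background, with the lowest shares on the DR2 arrays, and no spot was saturated. As a check of the labelled tissue, 14 transcripts with chlorophyll-binding or RuBisCO small subunit domains had a median intensity of 51515 at WT1, 4896 at DR1, 40929 after re-watering, and 387 at DR2, and 11 of the 14 were above background at DR2. The 28 transcripts with cupin or oleosin domains, listed for seed tissue by domain alone, had medians of 19.1, 117, 39.1 and 222. In the same order, 10, 28, 13 and 24 of them were above background. The highest intensity among the 28 was 24651, 3346, 30496 and 39215, so not all of them rose at DR1. Both lists came from the study's supplementary tables and were not chosen apart from these samples. Their part in the results below was not tested, and in bulk leaf RNA fewer cells of a type and less RNA per cell cannot be told apart. Of the re-watered arrays, WT2 replicate 1 lay nearer to the drought state than replicate 2. Among the 1983 transcripts with a call of higher in the first drought, 1826 (92.1%) were higher in WT2 replicate 1 than in WT2 replicate 2, with a median difference of 0.99 on the log2 scale, against 46.2% and -0.05 for all transcripts tested. Values that rest on the WT2 arrays are therefore given for each array.

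MYB73 was at the background in unstressed leaves and rose far above it in the second drought. Its normalized intensity, the background-corrected and quantile-normalized brightness averaged over its probes on the log2 scale, was 20.5 and 18.9 on the WT1 arrays, where no probe was well above background. It was 157 and 128 at DR1, 38.7 and 18.7 after re-watering, and 10810 and 8544 at DR2. The DR1 arrays lay above all WT1 and WT2 arrays, the DR2 arrays lay far above all others, and the WT2 arrays overlapped with those of WT1.

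Because MYB73 was not well above background at WT1, its rise at DR1 is a bound. The lowest probe signal well above background on each WT1 array stood in for its level there, which gave at least 5.46-fold higher at DR1 and at least 370-fold higher at DR2. The means of log2 intensity themselves differed by 2.85 (SE 0.34) between DR1 and WT1. With an offset of 50 added to the intensities this difference was 1.52, under 4-fold. From DR1 to DR2, where both conditions were above background, it rose by 6.08 (SE 0.34), which is 67.8-fold and the 86th largest rise of all transcripts tested. Against the re-watered leaves of the same slide the rise at DR2 was 8.48. The second response, DR2 - WT2, exceeded the first, DR1 - WT1, by 5.63 on the log2 scale, a difference in which any constant slide offset cancels. Leaf age does not cancel in it, since only the WT1 and DR1 leaves were of the same age.

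The 3 probes of MYB73 gave rises from DR1 to DR2 of 6.28, 5.97 and 6 on the log2 scale. For DR1 against WT1 the probes gave 3.69, 2.56 and 2.29. The probes thus differed less from one another in the step between the droughts than in the step from the background, and all 3 were above background on both arrays of DR1 and of DR2.

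The Myb family transcript Glyma.10G277800-1 was the mildest responder of the 3 and the only one that was above background on every array. Its intensity was 262 and 263 at WT1, 710 and 651 at DR1, 300 and 284 after re-watering, and 3747 and 1934 at DR2. No conditions overlapped, and of its 4 pairs of arrays that of DR2 was the farthest apart. The change at DR1 against WT1 was 1.37 (SE 0.31), or 2.59-fold, and that from DR1 to DR2 was 1.99 (SE 0.31), or 3.96-fold. Over the array pairs the step from DR1 to DR2 ranged from 1.44 to 2.53.

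A call is a change of more than 4-fold with an adjusted P below 0.05 in the limma fit. At DR1 it took in 3.6% of all transcripts tested as higher and 3.84% as lower, and the fitted changes of MYB73 and ERF1 were over 4-fold. From DR1 to DR2, 6.83% of all transcripts were called higher and 8.39% lower, and the same 2 transcripts were again over 4-fold. The Myb transcript was below 4-fold in both comparisons, with 2.59-fold and 3.96-fold. At DR2 against WT2, where 13% of all transcripts were called higher and 15.1% lower, all 3 were over 4-fold. The difference between the responses was over 4-fold for MYB73 alone, in a comparison that called 7.62% of all transcripts higher and 10.3% lower. These contrasts are the ones on which the transcripts were known, and no test of them is given. Without DR2 replicate 2 the step of the Myb transcript from DR1 to DR2 was 2.46, and without DR2 replicate 1 it was 1.51, so the array left out decides on which side of the threshold it falls. Its probes gave 2.11 and 1.87 for this step.

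Of the 3, ERF1 had the largest first response as fitted, although its response and that of MYB73 have only lower bounds. The intensity of ERF1 was 18.4 and 15 at WT1, with no probe above background, and rose to 1240 and 1085 at DR1. It was 174 and 32.6 after re-watering, and 11140 and 8670 at DR2. No conditions overlapped, and the WT2 arrays lay between those of WT1 and DR1, far apart from each other. The rise at DR1 was at least 46.5-fold, and the means of log2 intensity differed by 6.13 (SE 0.63), a fitted value that starts from the background signal. From DR1 to DR2 it rose by a further 3.08 (SE 0.63), or 8.48-fold, and at DR2 it was at least 393-fold higher than at WT1. The 2 probes moved alike, with 6.03 and 6.22 at DR1 and 3.09 and 3.08 from DR1 to DR2.

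**Figure D1:**
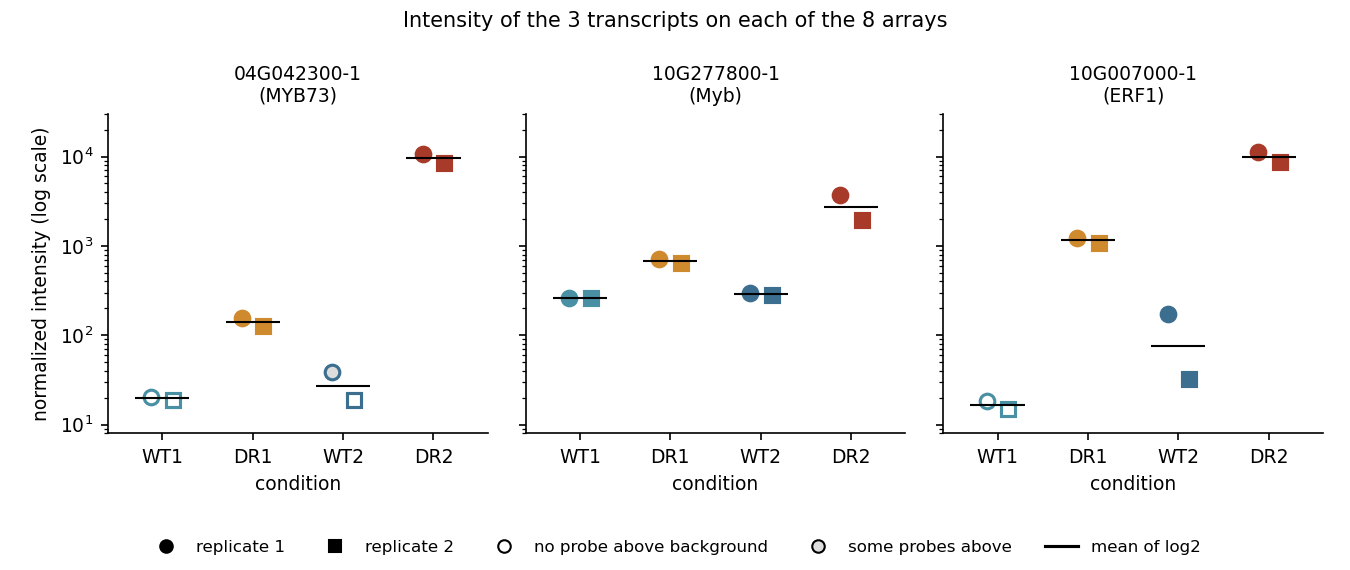
Normalized intensity (log scale) of the 3 transcripts on each of the 8 arrays, by condition, with replicate 1 as circles and replicate 2 as squares. Filled symbols have all probes well above background, grey some and open none, and the line is the mean of the log2 values. MYB73 went from 128 and 157 at DR1 to 8544 and 10810 at DR2, and the ERF1 arrays of WT2, at 174 and 32.6, stand apart.

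In the fitted values, MYB73 rose more from DR1 to DR2 than at DR1, and ERF1 rose more at DR1. The difference between the second and first drought responses was 5.63 for MYB73, 1.83 for the Myb transcript and 0.90 for ERF1 on the log2 scale. For MYB73 and ERF1 the first response has only a lower bound, so that these differences depend on the background signal of WT1. That of ERF1 depended on the re-watered array used as its base. It was 2.11 without WT2 replicate 1 and -0.30 without WT2 replicate 2. Over the 8 arrays, the centred log2 profiles of MYB73 and ERF1 differed by a root mean square of 1.35, and each differed from the Myb transcript by more, with 2.25 and 2.37.

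After 1 day of re-watering, the test of WT2 against WT1 called none of the 3 transcripts, in a comparison that called 0.396% of all transcripts higher and 0.0472% lower. At an unadjusted P below 0.05 in limma, 1 of the 3, ERF1, was higher, beside 10.3% of all transcripts higher and 8.65% lower. This comparison was not among the values that chose the transcripts, although it shares the WT1 arrays with them. MYB73 differed by 0.45 (SE 0.34, 95% interval -0.33 to 1.23, adjusted P = 0.52 in limma) with both WT1 arrays and 1 of the WT2 arrays below background. The Myb transcript differed by 0.15 (SE 0.31, 95% interval -0.55 to 0.85, adjusted P = 0.83). Its WT2 arrays were at 300 and 284 and its WT1 arrays, on the other slide, at 262 and 263. With a pair of arrays per condition, this order is not read as a difference.

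ERF1 was 2.18 higher at WT2 than at WT1 on the log2 scale (SE 0.63, 95% interval of this transcript alone 0.74 to 3.62, adjusted P = 0.11 in limma). All ERF1 probes were above background on both WT2 arrays and none was on the WT1 arrays, and the bound on the difference was at least 3.01-fold. The WT2 arrays differed from each other by 2.41 on the log2 scale, with replicate 1 the higher, and only 0.494% of the transcripts tested had a wider gap between those arrays, the median gap being 0.35. Without WT2 replicate 1 the difference from WT1 was 0.97 (adjusted P = 0.098 in limma), and without WT2 replicate 2 it was 3.39 (adjusted P = 0.0039 in limma), which was called. Against DR1, ERF1 had come down by 3.95 at WT2, MYB73 by 2.4 and the Myb transcript by 1.22, as fitted on the log2 scale. The corresponding gaps between the WT2 arrays of MYB73 and of the Myb transcript were 1.05 and 0.08.

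The nearest available relatives were taken from the study's annotation. Glyma.17G245200-1 has the same Arabidopsis counterpart as MYB73. Glyma.20G111800-1 and Glyma.10G277800-1 share a description as Myb family transcription factors, although no identifier ties them. The second MYB73 transcript had intensities of 13 and 13.4 at WT1, below background, 154 and 117 at DR1, 32.1 and 18.4 after re-watering, and 711 and 702 at DR2. Its first response was 3.35 as fitted (SE 0.29, at least 5.39-fold), where that of MYB73 was 2.85 (at least 5.46-fold). Both start from the background, so how alike they were cannot be judged. The rise of Glyma.17G245200-1 from DR1 to DR2 was 2.39 (SE 0.29), where MYB73 rose by 6.08. The 5 probes of Glyma.17G245200-1 gave between 2.33 and 2.44 for that step, and all 3 probes of MYB73 gave 5.97 or more. The difference in rise between the 2 transcripts is a description, since MYB73 was picked with its rise known.

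The Myb transcript Glyma.20G111800-1 had intensities of 131 and 159 at WT1, 857 and 710 at DR1, 242 and 142 after re-watering, and 5576 and 3545 at DR2. It changed by 2.43 at DR1 and by 2.51 (SE 0.33) from DR1 to DR2, so that it passed the fold threshold in both steps where Glyma.10G277800-1 did not. Neither relative was called at WT2 against WT1, with differences of 0.88 (adjusted P = 0.15 in limma) and 0.35 (adjusted P = 0.60 in limma). As with MYB73 and ERF1, WT2 replicate 1 was the higher array of each, by 0.80 and 0.77 on the log2 scale.

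**Figure D2:**
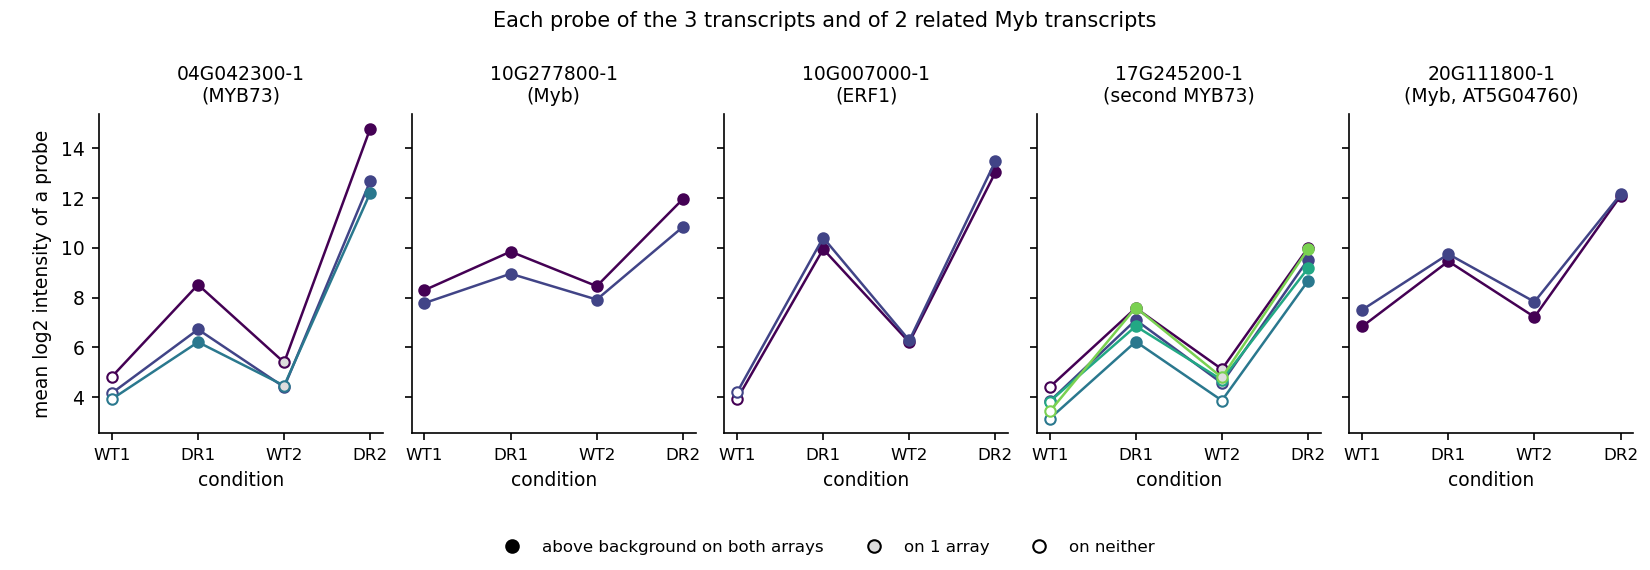
Mean log2 intensity of each probe over the 2 arrays of a condition, 1 line per probe, for the 3 transcripts and the 2 related Myb transcripts. Filled symbols were well above background on both arrays, grey on 1 and open on neither. The lines within a panel run nearly in parallel from DR1 to DR2, with steps of 5.97 to 6.28 for MYB73 and 2.33 to 2.44 for the second MYB73 transcript, Glyma.17G245200-1.

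Of the wider MYB family, only 66 tested transcripts with a Myb DNA-binding domain were described, the 3 transcripts excluded. These came from the study's own supplementary lists, most of which held transcripts selected on these samples. The lists include memory transcripts, which the study chose for their change from DR1 to DR2. Counts and shares of this list are therefore not independent evidence of direction or of a stronger response at DR2. At DR1, 33 of the 66 were called higher and 25 lower than at WT1, with a median change of 1.49 against 0.05 for all transcripts tested. From DR1 to DR2, 13 were called higher and 14 lower, with a median of -0.30 against -0.07. No transcript of the list was called at WT2 against WT1 in either direction by limma, with 3 higher and 4 lower at an adjusted P below 0.05, all under 4-fold. At an unadjusted P below 0.05, 14 (21.2%) were higher and 8 (12.1%) lower, against 10.3% and 8.65% of all transcripts tested. Of the 33 that were higher at DR1, 13 (39.4%) were higher again at DR2 and none was lower. Among all 1983 transcripts called higher at DR1 the shares were 20.4% and 9.63%, a comparison that the choice of the list affects. Of the 25 that were lower at DR1, 11 (44.0%) were lower again at DR2, against 28.9% of all that were lower at DR1, and none was higher, against 4.21%.

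Among these 66 transcripts, 17 had a greater fitted rise at DR1 than MYB73. From DR1 to DR2, MYB73, which was picked with its rise known, rose more than any of them. Next came Glyma.08G042100-1 with 4.97 (SE 0.39) and the MYB102 counterpart Glyma.08G059900-1 with 4.74 (SE 0.35). Glyma.05G234600-1, which shares the Arabidopsis counterpart MYB116 with Glyma.08G042100-1, rose by 4.04 (SE 0.37). Arabidopsis MYB102 is known from responses to dehydration and wounding. The MYB62 counterpart Glyma.10G273000-1 rose by 3.19 (SE 0.30), and Arabidopsis MYB62 acts in phosphate starvation and gibberellin responses. The intensity of Glyma.08G059900-1 went from 319 and 270 at DR1 to 6098 and 10086 at DR2, with 69.4 and 41.7 at WT2 between the droughts.

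Other MYB transcripts moved differently. Glyma.13G247200-1 had the largest rise of the list at DR1, 4.72 (SE 0.83), and its change from DR1 to DR2 was -2.24 (SE 0.83), which was not called. Glyma.16G138400-1 fell by 4.98 (SE 0.26) at DR1. At DR2 it was not well above background and was at least 7.16-fold lower than at DR1. Glyma.03G125000-1, whose Arabidopsis counterpart is the MYB-related MEE3, fell by 3.83 at DR1, and at DR2, where it was not well above background, it was at least 3.56-fold lower than at DR1. The fall of Glyma.02G055900-1 at DR1 was 5.12 (SE 0.29).

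ERF1 belongs to the family of transcripts with an AP2 domain. The 57 tested came from lists of the same origin, memory transcripts included. Their counts and shares are therefore no independent evidence of direction or of a stronger response at DR2. Of the 57, 41 were called higher and 10 lower at DR1, with a median change of 2.53. From DR1 to DR2, 12 were called higher and 4 lower, with a median of 0.94 against -0.07 for all transcripts. Of the 41 that were higher at DR1, 10 (24.4%) were higher again at DR2 and 2 (4.88%) were lower, beside the 20.4% and 9.63% among all transcripts. None was called at WT2 against WT1 by limma, with 5 higher and 0 lower at an adjusted P below 0.05, all under 4-fold. At an unadjusted P below 0.05, 19 (33.3%) were higher and 0 lower, beside the 10.3% and 8.65% of all transcripts. ERF1, which was picked with its drought changes known, lay above all 57 at DR1, the nearest being Glyma.19G138000-1 with 5.03 (SE 0.48). In the step from DR1 to DR2, 3 of the 57 lay above ERF1, with the highest at 3.49 (SE 0.40) for Glyma.13G298600-1.

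Glyma.06G290000-1 and Glyma.12G117000-1 rose by 4.94 and 4.73 at DR1 and by 4.49 and 4.26 at DR2 against WT2. Their levels at DR2 and at DR1 differed by 0.79 and 0.93, which was not called. The ERF110 counterpart Glyma.02G080200-1 rose by 4.61 (SE 0.36) and again by 2.51. Glyma.15G079100-1 fell by 2.27 at DR1 and was 3.32 (SE 0.25) higher at DR2 than at DR1. Glyma.07G051400-1, which is listed in this family while its Arabidopsis counterpart is of unknown function, fell by 2.75 (SE 0.34) at DR1. At DR2, where it was not well above background, it was at least 16.1-fold lower than at DR1.

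**Figure D3:**
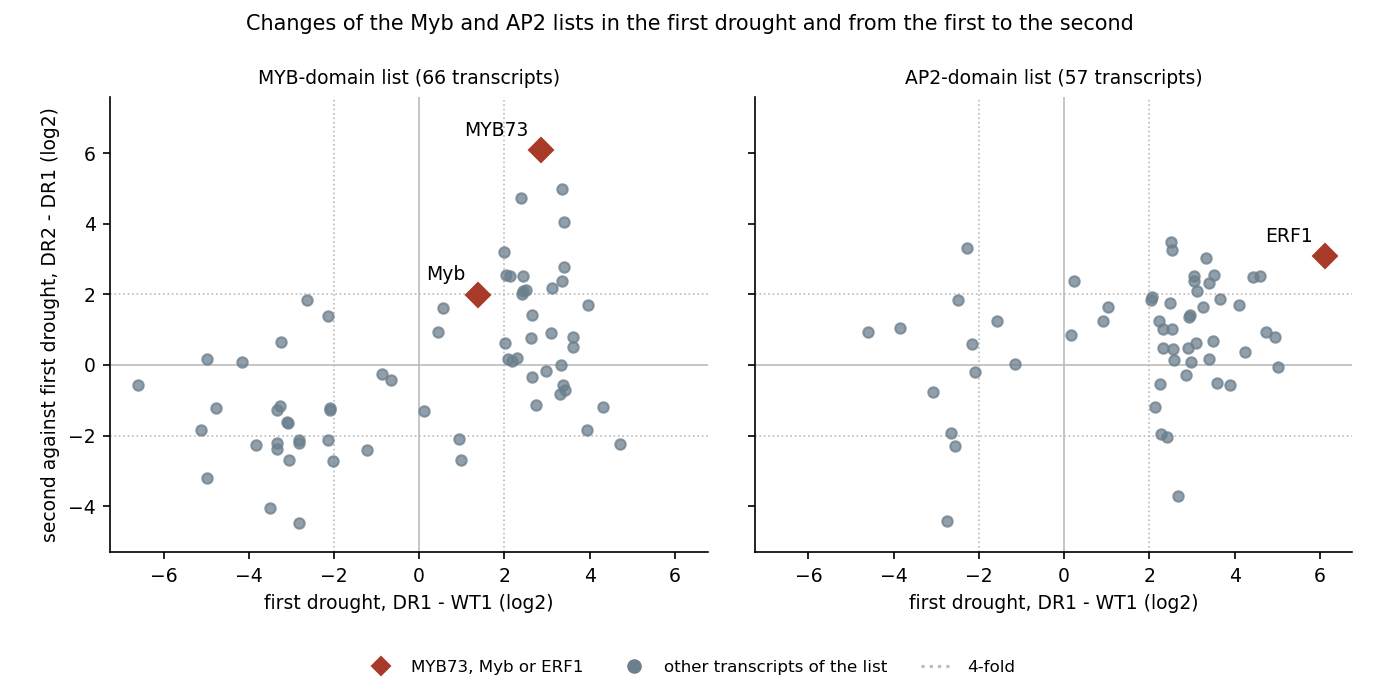
Log2 change in the first drought (DR1 - WT1, horizontal) against log2 change from the first to the second drought (DR2 - DR1, vertical) for the MYB list (66 transcripts) and the AP2 list (57 transcripts), with the 3 transcripts as red diamonds and dotted lines at 4-fold. MYB73, at 6.08, is above every transcript of its list on the vertical axis, and ERF1, at 6.13, is to the right of every transcript of its list. Both were picked with these changes known. The axes share the DR1 arrays, so the slope of the points is not read.

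The ethylene pathway around ERF1 was described over 7 transcripts of synthesis enzymes and of families that ERF1 targets in Arabidopsis, from the same supplementary lists. No transcript for an ethylene receptor, EIN2, EIN3 or CTR1 was among them. Glyma.05G211700-1, the counterpart of ACS1, an enzyme that makes the ethylene precursor 1-aminocyclopropane-1-carboxylate (ACC), had intensities of 76.1 and 66.8 at WT1, 586 and 478 at DR1, 127 and 81.2 after re-watering, and 3104 and 2141 at DR2. It rose by 2.89 (SE 0.29) at DR1 and by 2.28 from DR1 to DR2. Glyma.02G084400-1, a 2-oxoglutarate-dependent dioxygenase listed under ethylene synthesis, rose by 2.77 and then by 2.14.

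Both ACC oxidase transcripts, for the enzyme that turns the precursor into ethylene, fell. Glyma.06G117200-1 had intensities of 3469 and 2746 at WT1, 410 and 412 at DR1, 874 and 1464 after re-watering, and 46.3 and 45.3 at DR2. It fell by 2.91 (SE 0.28) at DR1 and by 3.17 from DR1 to DR2, and Glyma.04G245900-1 fell by 2.83 and by 2.90. At WT2 they were still 1.45 and 1.44 below WT1 on the log2 scale, under the fold threshold, with adjusted P of 0.032 and 0.039 in limma. These 2 share an Arabidopsis counterpart, and cross-hybridization of their probes was not tested.

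Of the 3 transcripts from families that ERF1 targets in Arabidopsis, none passed as higher from DR1 to DR2. That comparison called 6.83% of all transcripts higher, so with 3 transcripts nothing is read from this count. The defensins (gamma-thionin domain) Glyma.16G100400-1 and Glyma.08G268000-2 rose by 3.56 and 2.35 at DR1, and their levels at DR2 differed from those at DR1 by 0.79 and 0.32, below the threshold. The chitinase-domain transcript Glyma.01G160100-1 was the only one of the 7 called at WT2 against WT1. Its intensity was 369 and 348 at WT1, 1489 and 1200 at DR1, 1158 and 2216 after re-watering, and 334 and 435 at DR2. It was thus highest at WT2 replicate 2, and its rise of 2.16 over WT1 had an adjusted P of 0.018 in limma. It was listed by its domain, and whether ERF1 acts on it in soybean was not tested. Leaving out either WT1 array or WT2 replicate 2 ended that call. Without either WT1 array the comparison called 0 of the 55087 transcripts in limma. At an unadjusted P below 0.05, 3964 were then higher and 2734 lower without WT1 replicate 1, and 4189 and 3159 without replicate 2.

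The transcripts with profiles most like each of the 3 were found by the root mean square difference of centred log2 profiles over the 8 arrays, of which 4 pairs were replicates. For MYB73 they were Glyma.05G082400-1, with an NB-ARC domain and a disease resistance protein as counterpart (0.254), Glyma.15G089600-1, with a senescence regulator domain (0.276), and Glyma.08G178100-1, of the 2-nitropropane dioxygenase family (0.283). Glyma.05G082400-1 had intensities of 16.7 and 15.8 at WT1 and of 8318 and 9899 at DR2. The rises of these 3 from DR1 to DR2 were 6.31, 6.34 and 5.64. For the Myb transcript the closest were Glyma.13G127500-2, Glyma.08G247700-1 and Glyma.02G035200-1, with 0.0925, 0.113 and 0.148, none of which is annotated in the sources used here.

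For ERF1 the closest were Glyma.05G161600-1, the counterpart of the glutathione transferase GSTU7 (0.247), Glyma.10G028300-1_UE, an entry for a unique exon of a seed-storage cupin (0.291), and Glyma.09G032900-1 (0.35). All 3 had the wide gap between the WT2 arrays. Glyma.05G161600-1 had 494 on WT2 replicate 1 and 84.8 on replicate 2, with 51.9 and 27.5 at WT1. Glyma.10G028300-1_UE had 149 and 24.7, and Glyma.09G032900-1 had 629 and 60.1. The median gap of these 3 was 2.59 on the log2 scale, which is a property of profiles chosen for likeness to ERF1 on those same arrays.

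The loci on either side of each transcript, up to 2 places away by locus number, were examined because their choice did not use their values, although other results of these data were known. At 10 of the 12 neighbouring loci a transcript was tested. Beside MYB73, the protein kinase transcript Glyma.04G042400-1 had intensities of 421 and 448 at WT1, 23.1 and 27.7 at DR1, 196 and 274 after re-watering, and 404 and 274 at DR2. It fell by 4.10 (SE 0.27, adjusted P = 6.7e-05 in limma) at DR1, where MYB73 rose, and was 3.72 (SE 0.27, adjusted P = 2.3e-05 in limma) higher at DR2 than at DR1. Its arrays at DR1 were the lowest, and those at DR2 lay at or near the well-watered levels. At DR1 only 2 and 1 of its 5 probes were above background, so the sizes of both changes depend on the background signal. Over the 8 alternative settings that kept every array, the changes ranged from -5.45 to -2.68 and from 2.34 to 4.81. All of these passed 4-fold.

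Beside ERF1, Glyma.10G006900-1 and Glyma.10G006800-1 had calls of higher from DR1 to DR2. Their values of -0.19 and 0.06 at DR1 against WT1 were not called. For Glyma.10G006900-1 neither WT1 nor DR1 was above background, so its -0.19 is not a measured change. Glyma.10G006900-1, the next locus, rose from 18.5 and 15.8 at DR1, below background, to 88.8 and 77.1 at DR2, at least 3.73-fold (adjusted P = 0.00021 in limma). Glyma.10G006800-1 rose from 31.0 and 25.7 to 129 and 101, by 2.01 (SE 0.26, adjusted P = 0.00033 in limma). Leaving out DR1 replicate 2 or DR2 replicate 1 gave 1.88 or 1.83 for it, under the fold threshold. With an offset of 50 added to the intensities the fitted rises were 1.01 and 1.08, under the fold threshold. Beside the Myb transcript, Glyma.10G277700-1, with an amino acid permease domain, had a fitted fall of 2.55 at DR1 (adjusted P = 0.00025 in limma). It was not well above background at DR1, so the fall is a bound of at least 4.38-fold. With an offset of 50 its fitted change was -1.22, under the fold threshold. No neighbour of the Myb transcript was called from DR1 to DR2. In all, 3 of the 10 tested neighbours passed as higher from DR1 to DR2, in a comparison that called 6.83% of all transcripts higher. Of these, Glyma.10G006800-1 was near the fold threshold at 4.04-fold, and Glyma.10G006900-1 had a bound of 3.73-fold.

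**Figure D4:**
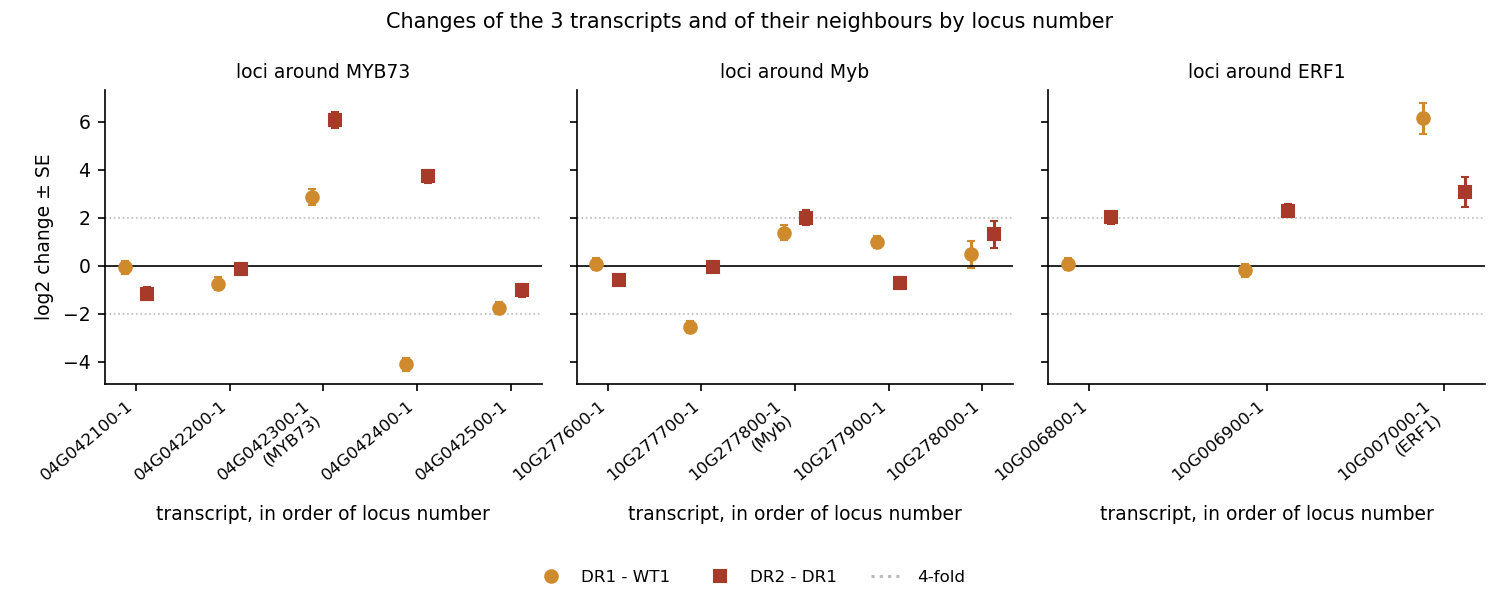
Log2 change ± SE of each of the 3 transcripts and of the tested transcripts at neighbouring loci, in order of locus number, for DR1 - WT1 (circles) and DR2 - DR1 (squares), with dotted lines at 4-fold. Glyma.04G042400-1, next to MYB73, fell by 4.10 at DR1, to near the background, and was then 3.72 higher at DR2. Both neighbours of ERF1 with a lower locus number went up from DR1 to DR2, by 2.01 and 2.28, the latter from below background.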

How the data were processed

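Leaf RNA was measured on 8 Agilent single-colour arrays, a pair for every condition (WT1, DR1, WT2, DR2), as the sample labels group them. Per the file headers, the deposited intensities are spot medians and local background medians from Feature Extraction 11.5.1.1. A second deposited file, of normalized intensities for 60386 transcripts that the authors had background-corrected with limma, served as an alternative. The settings of that step are not given in the sources used here.

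Here the median signals were corrected with the normexp method of limma 3.58.1 (R 4.3.3) at an offset of 0 and quantile normalized with every spot included. Controls and spots marked as outliers were then dropped, and the log2 values of a transcript's probes were averaged. A transcript was tested when both arrays of some condition had a probe well above background. A linear model with 4 condition means was fitted by lmFit and eBayes over the 8 arrays, with Benjamini-Hochberg adjustment over 55087 transcripts. Every adjusted P comes from limma, from this model unless the text names a replicate block or an array left out. A bound replaced a signal below the lowest probe signal well above background on its array. The script was tested on simulated data.

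The transcripts and the lists were chosen with earlier results of these data known. The deposited table held no domain descriptions, which the plan had assumed, so domains and Arabidopsis counterparts were read from the study's supplementary tables. Transcripts named from the lists are the 4 with the largest called rises and falls at DR1 against WT1 and from DR1 to DR2 for which every array of the 2 conditions compared had some probe well above background, of which the text gives a part. Larger changes that started from or ended at the background are therefore not named. The replicate numbers come from the sample titles, and whether equal numbers mark the same experiment is not known here. Correlations of their deviations between conditions ran from -0.31 to 0.30, which cannot settle it. The main model did not pair the arrays. Alternatives were the authors' table, an offset of 50, the processed signal centred on the 75th percentile, 75th-percentile scaling, no filter, a stricter filter, the median of probes, a replicate term, and leaving out each array.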

Additional observations from a re-analysis of the deposited data

Results flagged for a closer look

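The drought responses of some transcripts beside or around the 3 transcription factors differed, by the limma test of the difference between the second response (DR2 - WT2) and the first (DR1 - WT1) on the log2 scale. Among the neighbouring loci the differences were 4.62 for Glyma.04G042400-1 (-4.10 in the first drought and 0.52 in the second, adjusted P = 0.00014 in limma), 2.64 for Glyma.10G006900-1 (adjusted P = 0.0011 in limma), 2.14 for Glyma.10G006800-1 (adjusted P = 0.0025 in limma) and -2.06 for Glyma.10G277600-1 (adjusted P = 0.0025 in limma). The call of Glyma.10G006800-1 was lost without WT2 replicate 1 (1.88) or DR2 replicate 1 (1.96), and that of Glyma.10G277600-1 without WT1 replicate 2 (-1.98), DR1 replicate 1 (-1.94) or WT2 replicate 2 (-1.77). With an offset of 50 these calls were lost for Glyma.10G006800-1 (1.14), Glyma.10G006900-1 (1.1) and Glyma.10G277600-1 (-0.88), and with 75th-percentile scaling for Glyma.10G277600-1 (-1.59). Glyma.10G006900-1 had no probe well above background at WT1, DR1 or WT2, so its difference rests on the background signal. Its rise at DR2 over WT2 was at least 3.92-fold, a bound under the threshold. Glyma.10G277600-1 was not well above background at DR2, where it was at least 2.79-fold lower than at WT2. The chitinase-domain transcript Glyma.01G160100-1 rose by 1.90 in the first drought and fell by 2.07 in the second, a difference of -3.97 (adjusted P = 0.00047 in limma). In the MYB list, 6 of 66 transcripts had a call of higher for this difference and 12 of lower, and in the AP2 list 6 and 7 of 57, beside 7.62% higher and 10.3% lower of all transcripts. For the MYB list transcripts named here the differences were 4.80 for Glyma.08G059900-1, 3.98 for Glyma.08G042100-1, 2.61 for Glyma.10G273000-1, 2.60 for Glyma.05G234600-1, -2.25 for Glyma.20G224000-1, -2.67 for Glyma.04G170100-1 and -3.16 for Glyma.16G138400-1. For the named AP2 list transcripts they were 3.44 for Glyma.13G298600-1, 3.37 for Glyma.10G223200-1, 2.68 for Glyma.20G168500-1, 2.04 for Glyma.15G079100-1, -2.05 for Glyma.19G138000-1, -3.07 for Glyma.14G123900-1 and -3.70 for Glyma.07G051400-1. Leaving out each array in turn, the call of Glyma.19G138000-1 held in 2 of 8 fits (-2.92 to -1.19), that of Glyma.15G079100-1 in 5 (1.74 to 2.33), those of Glyma.04G170100-1 (-3.53 to -1.82) and Glyma.20G224000-1 (-2.71 to -1.80) in 6, and that of Glyma.20G168500-1 in 7 (1.96 without WT2 replicate 2). With an offset of 50 the calls of Glyma.16G138400-1 (-1.70), Glyma.20G224000-1 (-1.81), Glyma.19G138000-1 (-1.64) and Glyma.15G079100-1 (1.64) were lost, and that of Glyma.19G138000-1 also with the processed signal, 75th-percentile scaling or no filter. The list transcripts were named for large changes in contrasts that share arrays with this one.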

How the results depend on the processing

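With 2 arrays per condition, no value here has more than 2 replicates, and levels at WT1 of MYB73, ERF1 and Glyma.17G245200-1 are limited by the background. The values below are on the log2 scale. The rise from DR1 to DR2 was 6.63 for MYB73 and 3.49 for ERF1 with the processed signal, 6.43 and 3.43 with 75th-percentile scaling, and 5.59 for MYB73 with an offset of 50. Over the alternatives other than leaving out an array, that of the Myb transcript lay between 1.91 and 2.29 and passed 4-fold in 2 of 8. Over those 8, the difference between the drought responses of ERF1 ranged from 0 with the processed signal to 2 with an offset of 50. The value of 0 was marginally negative before rounding. Without WT2 replicate 1 the difference was 2.11, and without WT2 replicate 2 it was -0.30. The cause was not tested.

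For WT2 against WT1, leaving out each array gave -0.08 to 0.97 for MYB73, 0.11 to 0.19 for the Myb transcript, 0.97 to 3.39 for ERF1 (called only without WT2 replicate 2) and -0.03 to 0.74 for Glyma.20G111800-1. MYB73 and Glyma.20G111800-1 took their lowest values without WT2 replicate 1. Without a WT1 array WT2 - WT1 in limma called 0 of all transcripts (3964 or 4189 higher at an unadjusted P below 0.05), and without a WT2 array 379 or 400 higher, against 218. The processed signal called 2 MYB and 2 AP2 transcripts higher at WT2 than at WT1, and the median of probes called 1 MYB transcript lower. Leaving out each array gave 0 to 2 MYB transcripts lower, 0 to 5 AP2 transcripts higher and 0 to 1 ethylene transcripts higher. With an offset of 50, which compresses low values, the first responses of MYB73 and Glyma.17G245200-1 were 1.52 and 1.57, under 4-fold, and 15 MYB and 22 AP2 transcripts were called higher and 6 AP2 transcripts lower at DR1, and from DR1 to DR2 4 MYB and 1 AP2 transcripts were called lower. With the replicate block, ERF1 was 2.18 higher at WT2 than at WT1 (SE 0.52, adjusted P = 0.081 in limma), and the block changed no call of the 3 transcripts. 75th-percentile scaling moved the median of all transcripts to -0.11 at DR1 and 0.12 from DR1 to DR2.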
